A study of Mus musculus with 6 samples.

Results

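The genes described here encode the proteins of the mitochondrial ribosome. They were chosen by symbol, as the protein-coding genes named Mrpl or Mrps followed by a number, a rule that uses no measured value. The rule found 78 genes among the 22032 of the deposited table, the same 78 that the annotation holds, and all 78 had a mean of at least 1 CPM (reads per gene scaled for library size) and were tested. They comprise 51 genes of the large subunit, which include Mrps18a and Mrps30 in spite of their names, and 26 genes of the small subunit. The remaining gene, Mrps36, carries the family name, but its product is now known as a subunit of the 2-oxoglutarate dehydrogenase complex.

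Mitochondria keep a ribosome of their own, which translates the few messages of the mitochondrial genome into core subunits of the respiratory chain and of ATP synthase. Its RNAs are made from mitochondrial DNA, whereas all of its proteins are encoded in the nucleus, made in the cytosol and imported. Some of these proteins descend from those of bacterial ribosomes, and others were added in the lineage of mitochondria.

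RNA was sequenced from mDE6, a mouse cell line, carrying a control hairpin RNA (shControl, 3 libraries) or a hairpin against Arl4c (shArl4c, 3 libraries). Arl4c encodes a small GTP-binding protein, and the series title places the study in tooth germ development and osteoblastic differentiation. The labels name 1 hairpin against Arl4c and leave unstated whether replicates came from separate cultures. P-values therefore measure the spread among these samples, which may be technical, and effects of less Arl4c cannot be told apart from other effects of the hairpin or of the cultures. The deposited columns are numbered 1 to 3 for shControl and 2 to 4 for shArl4c, and libraries are named by these numbers.

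The libraries held 12316770 to 14976113 reads, and a member had 70 to 1540 reads in a library. Arl4c stood at 20.7, 21.0 and 20.1 CPM in shControl and at 6.75, 7.42 and 6.89 CPM in shArl4c (limma adjusted p = 2.08e-10). Pairs of replicates gave a chi-square over its degrees of freedom between 1.54 and 2.30, except that shArl4c 3 gave 5.74 against shArl4c 2 and 4.87 against shArl4c 4. The summed level of 8 mesenchymal markers was 31590 to 33010 CPM in shControl and 18947 to 19813 CPM in shArl4c. That of 7 epithelial markers was 7.75 to 9.18 and 9.87 to 10.4 CPM, that of 6 leukocyte markers 4.88 to 5.46 and 6.75 to 8.24 CPM, and that of 3 endothelial markers 1.48 to 2.07 and 1.07 to 1.74 CPM. A mean of at least 1 CPM was reached by 8 mesenchymal, 2 epithelial, 2 leukocyte and 1 endothelial markers. Such a sum follows its most abundant genes and does not give the direction of each marker. Epcam and Cdh5 were not among the listed genes, none of the markers that were listed was at 0 in all 6 libraries, and their part in the results on the mitochondrial ribosome was not tested. In bulk RNA, fewer cells of a type and less RNA per cell cannot be told apart.

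Most mitochondrial ribosomal protein genes differed little between the groups, and most of the differences pointed upward. By limma, 16 of 78 members (20.5%) were higher in shArl4c at an adjusted p under 0.05, against 18.9% of all 14740 tested genes. Only 2 members (2.56%), Mrps14 and Mrps15, were lower, against 18.0% of all tested genes. Calls in either direction made up 23.1% of the members and 36.9% of all genes. The median log2 fold change, taken on CPM + 1 as are all log2 values here, was 0.11 for the members and 0.01 for all tested genes, with a range of -0.33 to 0.52 for the members. The difference was above 0 in 63 members and in 7635 of the 14740 tested genes (51.8%). In 45 members the means of the groups were within 10% of each other, and the largest differences were those of Mrpl14 (1.46-fold higher), Mrpl11 (1.26-fold higher) and Mrps14 (1.26-fold lower). The median standard error of a member's log2 fold change was 0.07, so differences of about that size were within the error of a single gene.

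**Figure D1:**
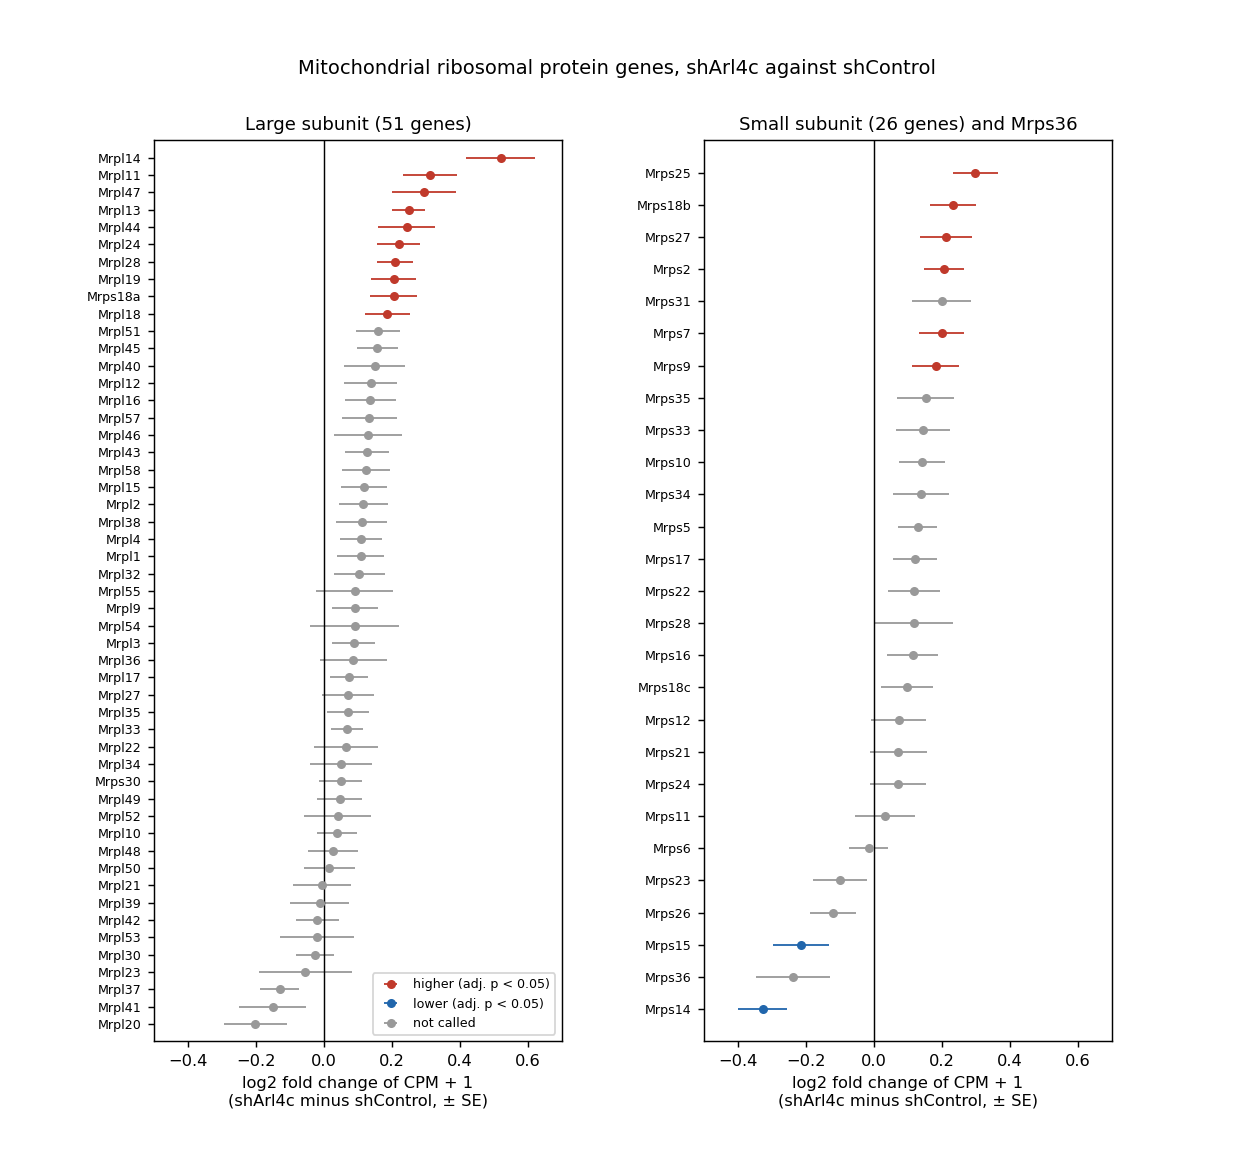
Log2 fold change of CPM + 1 (shArl4c minus shControl, x axis) of the 78 mitochondrial ribosomal protein genes, each a point with its standard error, by subunit. Red points were called higher and blue points lower by limma at an adjusted p under 0.05; the 16 red points run from 0.18 to 0.52, and the 2 blue points are Mrps14 and Mrps15.

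Mrpl14 rose the most of the 78 members. It encodes a protein on the face of the large subunit that meets the small subunit, to which the assembly factor Malsu1 binds. Its level was 32.6, 32.4 and 29.5 CPM in shControl 1, 2 and 3 and 48.3, 38.0 and 51.7 CPM in shArl4c 2, 3 and 4. The groups did not overlap, and shArl4c 3 was the lowest of its group. The means were 31.5 ± 1.72 and 46.0 ± 7.12 CPM (SD, n = 3), or 1.46-fold higher, a log2 fold change of 0.52 (SE 0.10) with a limma adjusted p of 0.00223.

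Mrps14 fell the most. Its product belongs to the head of the small subunit and has a counterpart in bacteria. Its shControl libraries held 34.1, 32.9 and 31.9 CPM and its shArl4c libraries 28.4, 23.6 and 26.5 CPM, so all 3 shArl4c libraries lay below all shControl libraries. The log2 fold change was -0.33 (SE 0.07) with a limma adjusted p of 0.00127. Mrps15, a protein of the body of the small subunit, stood at 24.8, 24.3 and 21.2 CPM in shControl and at 21.9, 18.4 and 19.97 CPM in shArl4c. These groups overlapped, since shArl4c 2 lay above shControl 3, and the call was near the threshold (log2 fold change -0.21, limma adjusted p = 0.0493).

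The sequences before the start sites of 4 of these genes are shown because they stand for the members with and without the motifs counted further on: the largest rise, the largest fall, and 2 members called higher with a motif. They were chosen after their values were seen. Each is the 250 bases before a RefSeq transcript start, in build GRCm38.p6 and on the plus strand, while the expression values were made on GRCm39. Capitals mark a match to the core motif of NRF1 in Mrpl44 and, read from the other strand, to that of the ETS family in Mrps27. Mrpl14 and Mrps14 hold none of the 3 motifs searched before the start, and in Mrpl14 the NRF1 core begins 4 bases after it. Mrps27 also holds the YY1 core, which begins 14 bases after its start. The windows are chr17:45686099-45686348 for Mrpl14, chr1:160194965-160195214 for Mrps14, chr1:79775768-79776017 for Mrpl44 and chr13:99344536-99344785 for Mrps27.
Mrpl14: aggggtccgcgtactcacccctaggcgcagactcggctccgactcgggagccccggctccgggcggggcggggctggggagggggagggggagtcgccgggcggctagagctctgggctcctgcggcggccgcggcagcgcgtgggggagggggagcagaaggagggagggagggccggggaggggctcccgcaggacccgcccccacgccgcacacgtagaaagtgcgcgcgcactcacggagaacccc
Mrps14: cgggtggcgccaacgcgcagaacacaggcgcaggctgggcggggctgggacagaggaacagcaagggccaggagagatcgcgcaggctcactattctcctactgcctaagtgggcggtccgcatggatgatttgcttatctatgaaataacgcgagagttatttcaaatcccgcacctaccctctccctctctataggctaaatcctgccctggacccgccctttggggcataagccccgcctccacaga
Mrpl44: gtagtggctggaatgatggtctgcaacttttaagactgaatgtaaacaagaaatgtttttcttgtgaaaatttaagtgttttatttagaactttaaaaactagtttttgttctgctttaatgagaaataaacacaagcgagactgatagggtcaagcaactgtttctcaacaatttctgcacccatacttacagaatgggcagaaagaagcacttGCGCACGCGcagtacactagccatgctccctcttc
Mrps27: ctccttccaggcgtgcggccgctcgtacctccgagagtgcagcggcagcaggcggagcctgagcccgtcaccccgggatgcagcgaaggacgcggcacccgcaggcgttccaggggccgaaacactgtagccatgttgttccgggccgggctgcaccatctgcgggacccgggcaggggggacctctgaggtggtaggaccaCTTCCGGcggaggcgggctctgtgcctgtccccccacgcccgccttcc

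In the large subunit, 10 of 51 members (19.6%) were called higher, near the 18.9% of all tested genes. None was called lower, against 18.0% of all tested genes, and the median log2 fold change was 0.09. Of the 30 with a bacterial counterpart, 8 rose (26.7%) and 22 did not pass. Of the 21 listed as specific to mitochondria, 2 rose (9.52%), Mrpl44 and Mrps18a, and 19 did not pass. Mrps18a was listed there although it is a relative of bacterial S18, so this share depends on that choice. Medians of these classes were near each other, 0.10 and 0.09.

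Several of the large subunit genes that rose encode proteins of its conserved core. Mrpl13 stood at 90.5, 88.2 and 85.6 CPM in shControl and at 112, 102 and 101 CPM in shArl4c, with no overlap (log2 fold change 0.25 with an SE of 0.05, limma adjusted p = 0.000455). Mrpl28 went from 49.6, 50.6 and 48.7 CPM to 59.8, 54.9 and 57.9 CPM, also with no overlap (log2 fold change 0.21, limma adjusted p = 0.00443). In Mrpl13 shArl4c 4 was the lowest of its group. Mrpl19 had 24.6, 25.7 and 26.5 CPM in shControl and 28.4, 30.1 and 30.5 CPM in shArl4c 2, 3 and 4, so that shArl4c 3 was not the lowest there either. Mrpl18, of the central protuberance, a crest on the large subunit near the bound tRNAs, rose from 29.98 ± 1.53 to 34.3 ± 1.79 CPM (limma adjusted p = 0.032). It was the only 1 of 8 genes listed for the central protuberance that was called (12.5%, against 36.9% of all tested genes). All 8 had a log2 fold change above 0, from 0.03 to 0.19.

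The stalk of the large subunit recruits the translation factors. Mrpl11, at its base, stood at 19.5, 20.2 and 22.0 CPM in shControl and at 28.4, 23.6 and 25.4 CPM in shArl4c, 1.26-fold higher with no overlap (log2 fold change 0.31 with an SE of 0.08, limma adjusted p = 0.00421). Mrpl12, the stalk protein that meets the factors, had 45.03, 43.6 and 43.4 CPM in shControl and 55.7, 42.6 and 48.1 CPM in shArl4c. Its shArl4c 2 and 4 libraries lay above shControl and its shArl4c 3 library below, and it was not called (log2 fold change 0.14, limma adjusted p = 0.197). Mrpl10, which anchors the stalk, differed by 0.04 on the log2 scale (limma adjusted p = 0.666).

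At the mouth of the tunnel through which the new protein leaves, 2 of 6 genes rose (33.3%, against 18.9% of all tested genes). The list is too short for these shares to be compared. Mrpl47, a rim protein with a bacterial counterpart, stood at 10.9, 12.98 and 11.7 CPM in shControl and at 15.4, 13.6 and 15.3 CPM in shArl4c, 1.24-fold higher (limma adjusted p = 0.019). Mrpl24, another rim protein, went from 30.7, 30.9 and 31.6 CPM to 37.2, 34.2 and 37.7 CPM, 1.17-fold higher (limma adjusted p = 0.00918). The groups did not overlap in either gene. Mrpl45, which holds the ribosome near the inner membrane, had non-overlapping groups too, at 33.7, 33.3 and 34.7 against 38.98, 35.9 and 38.9 CPM, with a limma adjusted p of 0.05001. Mrpl17, Mrpl22 and Mrpl23 were not called, with log2 fold changes of 0.07, 0.07 and -0.05.

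Among the mitochondria-specific proteins of the large subunit, Mrpl44, which carries a fold related to ribonuclease III, stood at 15.2, 13.9 and 14.5 CPM in shControl and at 17.4, 16.04 and 18.7 CPM in shArl4c (log2 fold change 0.24, limma adjusted p = 0.0313). Mrps18a, a relative of bacterial S18 that is built into the large subunit, rose from 31.4 ± 0.536 to 36.5 ± 3.53 CPM (limma adjusted p = 0.0268). In both genes the groups were apart. Mrps30, the other small-subunit name in the large subunit, differed by 0.05 on the log2 scale and was not called. Mrpl37 had non-overlapping groups in the other direction, at 42.2, 41.1 and 41.9 against 39.6, 36.1 and 38.4 CPM, and did not pass (log2 fold change -0.13, limma adjusted p = 0.0887).

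In the small subunit, 6 of 26 members (23.1%) were called higher and 2 (7.69%) lower, against 18.9% and 18.0% of all tested genes. The median log2 fold change was 0.12. Of the 16 with a bacterial counterpart, 3 rose (Mrps2, Mrps7 and Mrps9), 2 fell (Mrps14 and Mrps15) and 11 did not pass. Of the 10 listed as specific to mitochondria, 3 rose (Mrps25, Mrps18b and Mrps27) and 7 did not pass. Mrps18b was listed there although it is a relative of bacterial S18, while Mrps18c was listed with a bacterial counterpart. The shares of the classes depend on that choice. Those called higher made up 18.8% and 30% of these classes. Genes of the head, the part of the small subunit that swivels as the tRNAs move, went both ways. Of 8 listed, Mrps7 and Mrps9 rose (25%) and Mrps14 fell (12.5%), against 18.9% and 18.0% of all tested genes.

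Mrps25 had the largest rise of the small subunit, from 37.7, 34.6 and 31.7 CPM to 44.9, 41.9 and 41.6 CPM, 1.23-fold higher with no overlap (log2 fold change 0.30 with an SE of 0.07, limma adjusted p = 0.00151). Mrps18b, also a relative of bacterial S18, stood at 37.4, 35.03 and 36.6 CPM in shControl and at 46.7, 38.4 and 43.8 CPM in shArl4c (limma adjusted p = 0.0116). Mrps27, a pentatricopeptide repeat protein, had 29.8, 30.5 and 26.2 CPM in shControl and 36.6, 30.5 and 33.7 CPM in shArl4c. Its shArl4c 3 library fell within the range of shControl, so the groups overlapped (log2 fold change 0.21, limma adjusted p = 0.0355). Mrps2 rose from 43.8 ± 0.359 to 50.8 ± 3.54 CPM (limma adjusted p = 0.00896). Mrps7 rose from 48.1 ± 2.63 to 55.5 ± 5.36 CPM, with overlapping groups (limma adjusted p = 0.0262). Mrps9, whose protein has a bacterial counterpart near the tRNA sites, rose from 23.5 ± 1.02 to 26.8 ± 1.48 CPM (limma adjusted p = 0.0498). Mrps36, which is no ribosomal protein, stood at 14.6, 15.5 and 13.9 against 14.1, 10.04 and 13.01 CPM and was not called (limma adjusted p = 0.0941).

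**Figure D2:**
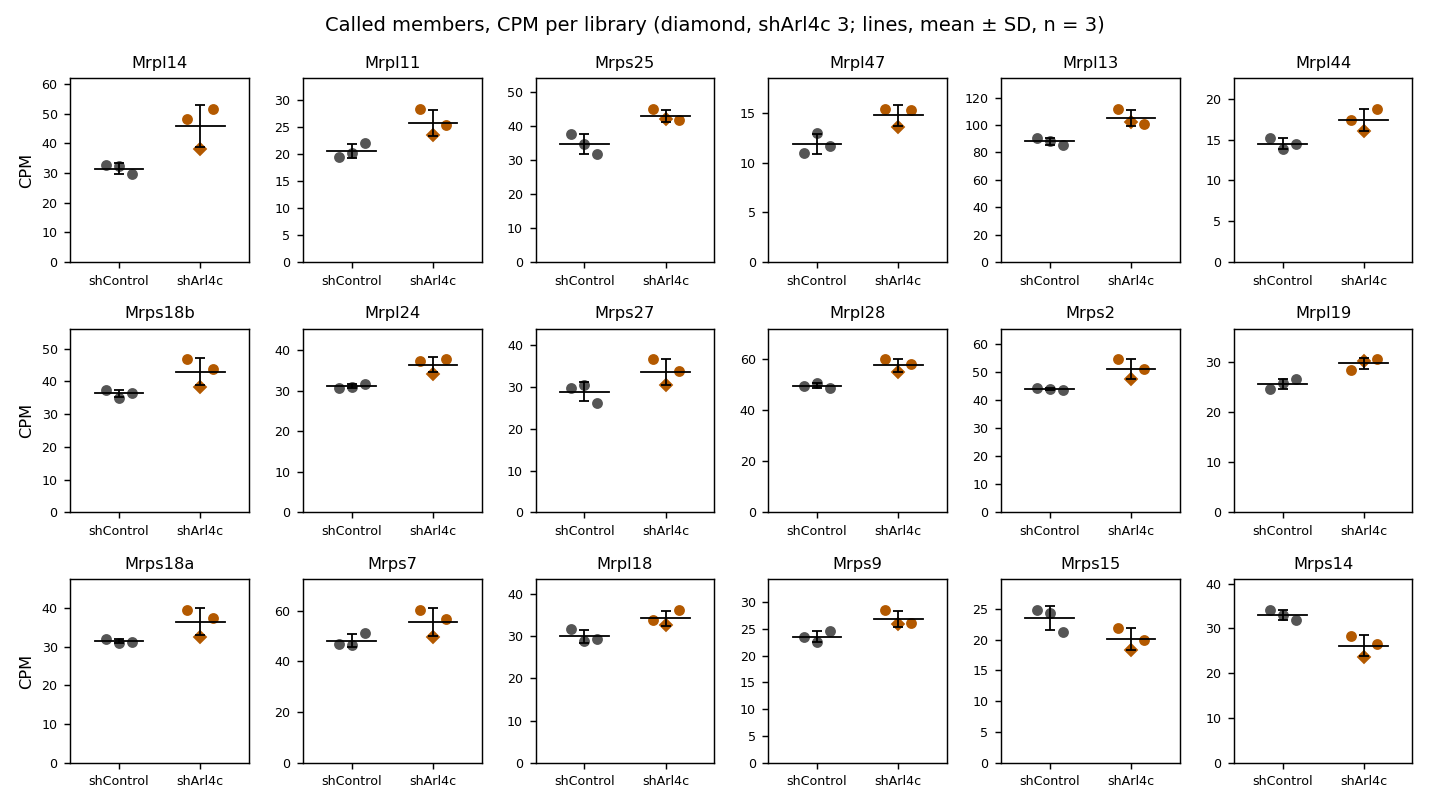
CPM (y axis, from 0) of the 18 members called by limma, in 3 shControl and 3 shArl4c libraries, with lines for the mean and bars for the SD (n = 3). Diamonds mark shArl4c 3; in Mrpl14 it stands at 38.0 CPM, against 48.3 and 51.7 CPM in the other shArl4c libraries, and in Mrps14 all shArl4c libraries lie below shControl.

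The 3 shArl4c libraries did not show the rise alike. The summed level of the 78 members was 2331, 2288 and 2275 CPM in shControl 1, 2 and 3 and 2589, 2309 and 2518 CPM in shArl4c 2, 3 and 4. In shArl4c 2, 67 members lay above their shControl mean and in shArl4c 4, 65 did, with median log2 deviations of 0.17 and 0.14. In shArl4c 3, 37 members lay above it and the median was -0.01, between those of the shControl libraries (0.02, -0.0035 and -0.01). Of the 78 members, 62 (79.5%) had their lowest shArl4c value in shArl4c 3, as did 43.3% of all tested genes.

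Without shArl4c 3, 30 of the 78 members were called higher by limma, a larger share than the 23.8% of all genes. Only 1 was called lower, a smaller share than the 21.4% of all genes. The larger share called higher restates the pattern above, since leaving out shArl4c 3 takes away the lowest shArl4c value of most members. The 30 included all 16 of the full comparison. Gained were 14: Mrpl2, Mrpl12, Mrpl15, Mrpl38, Mrpl45, Mrpl51, Mrps5, Mrps10, Mrps16, Mrps17, Mrps24, Mrps33, Mrps34 and Mrps35. Mrpl38, of the central protuberance, shows the pattern, with 36.8, 37.1 and 37.3 CPM in shControl and 41.8, 34.8 and 44.3 CPM in shArl4c 2, 3 and 4. Mrps15 lost its call. Among the tests that left out a library, Mrps36 passed as lower only without shArl4c 2, Mrps31 passed as higher only without shArl4c 4, and Mrpl51 passed also without shControl 1. Leaving out shArl4c 2 gave 7 of the 78 members called higher, against 16.0% of all genes, and leaving out shArl4c 4 gave 8, against 15.0%. Leaving out shControl 1, 2 or 3 gave 11, 9 and 10, against 14.8%, 14.8% and 16.1% of all genes. In each of these tests the members had a smaller share called higher than all genes, though the shares were close without shControl 1. Their share was larger without shArl4c 3 and in the full comparison (20.5% against 18.9%).

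The groups did not overlap in 25 members (32.1%), against 46.8% of all tested genes. Among all 78 members, 23 had groups apart with shArl4c higher, against 3587 of the 14740 tested genes (24.3%). Another 2 of the 78, Mrps14 and Mrpl37, had groups apart with shArl4c lower, against 3318 of the 14740 tested genes (22.5%). When recovered reads were tested, edgeR called 13 members higher and 2 lower, against 17.4% and 18.6% of all genes, and DESeq2 called 6 higher and 1 lower, against 13.6% and 14.3%. The calls that held in each of the 13 other settings and in each of the 6 tests without a library were those of Mrpl11, Mrpl13, Mrpl14, Mrpl28, Mrps14 and Mrps25. Mrpl18, Mrpl19, Mrpl24, Mrpl44, Mrpl47, Mrps2, Mrps7, Mrps9, Mrps15, Mrps18a, Mrps18b and Mrps27 each lost the call when at least 1 library was left out.

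**Figure D3:**
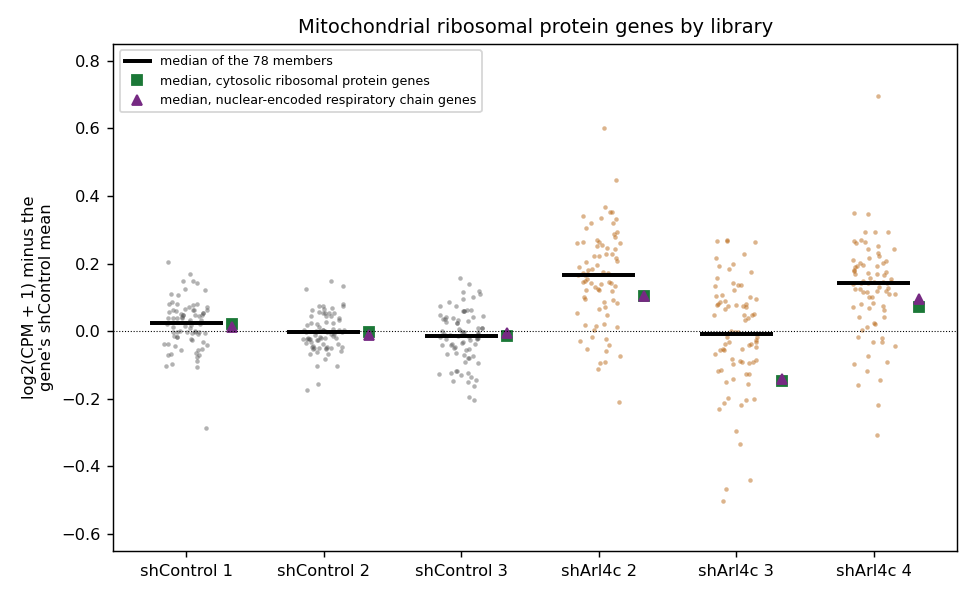
Log2(CPM + 1) of each of the 78 members less its mean in shControl (y axis), by library, with black lines for the medians over the members. Squares and triangles are the medians of cytosolic ribosomal protein genes and of nuclear-encoded respiratory chain genes; all 3 medians are above 0 in shArl4c 2 and 4, and in shArl4c 3 the members stand at -0.01 and the others at -0.15 and -0.14.

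The lower values of shArl4c 3 were shared with genes of the cytosolic ribosome and of the respiratory chain. For 82 tested cytosolic ribosomal protein genes the median log2 deviation from shControl was 0.11, -0.15 and 0.07 in shArl4c 2, 3 and 4, and for 77 nuclear-encoded respiratory chain genes it was 0.10, -0.14 and 0.09. The median of the mitochondrial ribosomal protein genes lay above that of the cytosolic list by 0.06, 0.14 and 0.07 in shArl4c 2, 3 and 4, and differed from it by 0.0012, -0.0016 and 0.00025 in shControl 1, 2 and 3. It lay above the respiratory chain list by 0.06, 0.13 and 0.05 in shArl4c, and by 0.01, 0.01 and -0.01 in shControl. Each deviation is taken from the gene's own shControl mean, so the small differences in shControl are partly set by construction. By limma, 3 cytosolic ribosomal protein genes (3.66%) were higher and 6 (7.32%) lower, and 10 respiratory chain genes (13%) were higher and 4 (5.19%) lower. Among all tested genes 18.9% were higher and 18.0% lower. The median log2 fold changes of the 2 lists were 0.02 and 0.03. Differences between the lists were not tested.

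The members also differed in level. Compared per kilobase of the principal transcript (GENCODE M21), the highest over the 6 libraries were Mrpl33 at 148, Mrpl13 at 78.9 and Mrps6 at 67.1 CPM per kilobase, and the lowest were Mrpl47 at 3.96, Mrps35 at 4.57 and Mrpl19 at 5.52. The order depends on which transcript is taken, since principal transcripts of the members ran from 418 to 7300 bases. Mrpl33 and Mrps6 were not called, with log2 fold changes of 0.07 and -0.02.

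Of the proteins of the mitochondrial ribosome with other names, 1 of 5 was called (20%, against 36.9% of all tested genes). Ptcd3, a pentatricopeptide repeat protein of the small subunit, rose from 83.8, 85.9 and 83.9 CPM to 99.1, 96.8 and 93.6 CPM (log2 fold change 0.19 with an SE of 0.04, limma adjusted p = 0.00251). Dap3, Chchd1 and Aurkaip1 of the small subunit and Gadd45gip1 of the large subunit were not called, with log2 fold changes of 0.09, 0.11, -0.16 and 0.01. Among 28 factors that assemble the ribosome or modify its RNA, none was called higher and 1 (3.57%) lower, with a median of 0.07. Among all tested genes 18.9% were higher and 18.0% lower. The factor called lower was Nsun4, an RNA methyltransferase and a partner of Mterf4. It went from 21.9 ± 0.107 to 18.3 ± 1.52 CPM (limma adjusted p = 0.0161).

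Some genes of the translation cycle in mitochondria were called higher. Of 16 tested genes listed for translation, 5 (31.2%) were called, all higher, against 18.9% of all tested genes. The 5 were Tufm, Gfm2, Gfm1, Tsfm and Lrpprc, and the list's median was 0.07. Tufm, the elongation factor that brings tRNA to the ribosome, rose from 70.4, 66.8 and 71.8 CPM to 88.6, 80.1 and 88.6 CPM, with no overlap (log2 fold change 0.30 with an SE of 0.05, limma adjusted p = 0.000158). Gfm2, which takes part in ribosome recycling, rose from 33.1 ± 0.149 to 39.6 ± 1.63 CPM (limma adjusted p = 0.00227). Of 22 aminoacyl-tRNA synthetase genes, which include charging enzymes shared with the cytosol, 3 were higher (Kars, Tars2 and Vars2) and 1 lower (Gars). These made up 13.6% and 4.55% of the list, against 18.9% and 18.0% of all tested genes. Both leading genes of that list serve both compartments: Gars, the glycyl-tRNA synthetase, fell from 410.3 ± 10.6 to 289 ± 17.6 CPM (limma adjusted p = 3.68e-08), and Kars, the lysyl-tRNA synthetase, rose from 229.9 ± 10.2 to 269.5 ± 13.8 CPM (limma adjusted p = 0.000638).

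Some genes that copy mitochondrial DNA or process its transcripts were called too, most of them higher. Of 19 tested for transcription and RNA processing, 6 (31.6%) were higher and 2 (10.5%), Fastk and Grsf1, were lower. Among all tested genes 18.9% were higher and 18.0% lower. The list's median was 0.14. Pnpt1, a polynucleotide phosphorylase that is also known as an interferon-induced gene, went from 47.6, 47.5 and 53.0 CPM to 105, 99.8 and 94.7 CPM, 2.02-fold higher (log2 fold change 1.003 with an SE of 0.06, limma adjusted p = 3.72e-11). Hsd17b10, a subunit of mitochondrial ribonuclease P, rose from 51.05 ± 3.47 to 65.7 ± 6.42 CPM (limma adjusted p = 0.000815). Tfam, which packages mitochondrial DNA and starts its transcription, rose from 35.7 ± 0.938 to 41.6 ± 0.735 CPM (limma adjusted p = 0.00534), and Polrmt, the mitochondrial RNA polymerase, from 33.97 ± 1.07 to 39.4 ± 3.24 CPM (limma adjusted p = 0.0201). Of 8 DNA replication genes, 2 (25%) were higher, Mgme1 and Top1mt (log2 fold changes 0.32 and 0.23), and none was lower. Of 20 protein import genes, Tomm22 and Tomm40 (10%) were higher and 1 (5%) was lower. The gene that was lower was that of the matrix chaperone Hspa9, from 678 ± 13.8 to 587 ± 21.3 CPM (limma adjusted p = 0.000401).

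The transcripts of the mitochondrial genome itself went the other way where they were called. Of 15 listed genes, none was higher, against 18.9% of all tested genes. Lower were 4 (26.7%, against 18.0%), mt-Cytb, mt-Nd1, mt-Nd3 and mt-Nd4, and the median log2 fold change was -0.30. The list varied within shControl: its median log2 deviation was 0.20, 0.03 and -0.20 in shControl 1, 2 and 3. In shArl4c 2, 3 and 4 it was -0.21, -0.29 and -0.38, so shControl 3 stood near shArl4c 2. The gene mt-Cytb, for cytochrome b, fell from 895, 876 and 867 CPM to 755, 741 and 723 CPM (log2 fold change -0.25 with an SE of 0.04, limma adjusted p = 3.53e-05). The gene mt-Nd1, for a subunit of complex I, fell from 555, 521 and 436 CPM to 377, 357 and 358 CPM (limma adjusted p = 0.00465). Values for the ribosomal RNA genes varied within shControl: mt-Rnr1 stood at 60.5, 39.0 and 28.96 CPM in shControl and at 21.3, 25.9 and 21.96 CPM in shArl4c, and was not called (limma adjusted p = 0.122). The other one, mt-Rnr2, was not called either (log2 fold change -0.28, limma adjusted p = 0.191). The gene mt-Co1 did not pass, with means of 7582 CPM (shControl) and 7560 CPM (shArl4c). In shControl 2 mt-Co2 was listed at 0, and in shArl4c 3 mt-Co3 was, although both had reads in every other library.

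Among known regulators of mitochondrial gene expression, 2 of 11 were called (18.2%, against 36.9% of all tested genes). Of these, Gabpb2, a subunit of the ETS factor GABP, was higher (log2 fold change 0.18, limma adjusted p = 0.00328) and Myc, a transcription factor that drives growth genes, was lower (log2 fold change -0.18, limma adjusted p = 0.00601). Nrf1, the transcription factor nuclear respiratory factor, stood at 37.9, 39.4 and 37.3 CPM in shControl and at 40.7, 42.9 and 41.2 CPM in shArl4c, without overlap, and did not pass (limma adjusted p = 0.114). Gabpb1, another GABP subunit, had groups that did not overlap (log2 fold change 0.13, limma adjusted p = 0.0827), and Perm1, a regulator known from muscle that was low in both groups (means of 2.11 CPM or less), had the largest difference of the list (0.33, limma adjusted p = 0.174); neither passed. Values that did not pass were also found for the coactivators Ppargc1a (log2 fold change -0.15), Ppargc1b (0.19) and Pprc1 (0.04), and for Gabpa (-0.02), Esrra (-0.10) and Yy1 (0.12).

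**Figure D4:**
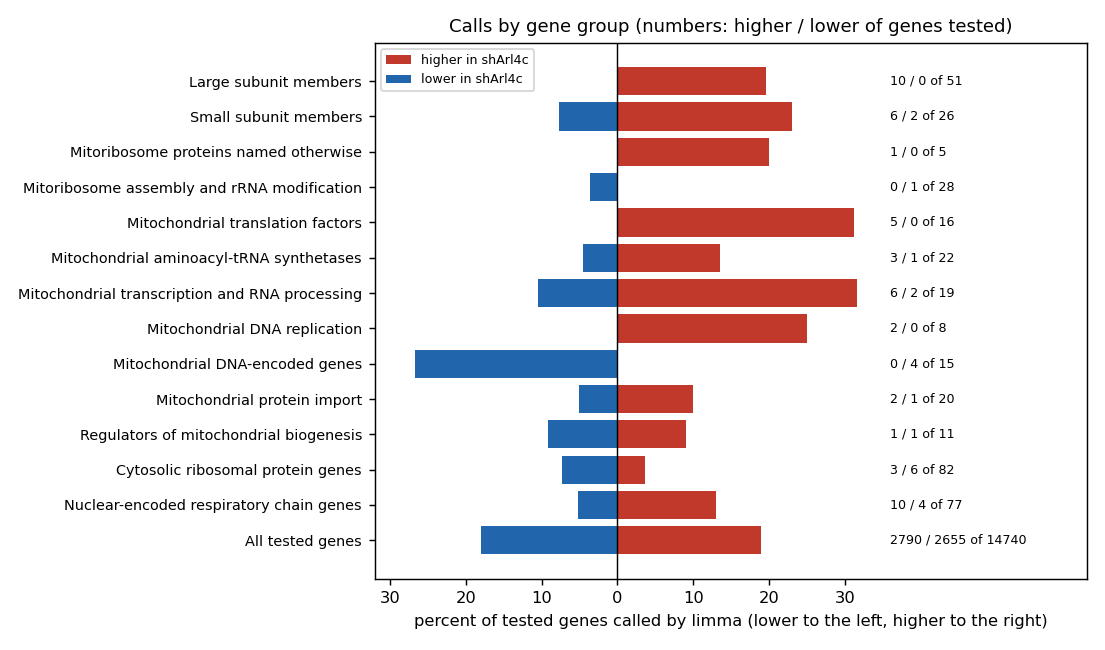
Percent of the tested genes of each group that limma called higher (red, to the right of 0) or lower (blue, to the left) in shArl4c, with the numbers called and tested at the right. The large subunit has 10 higher and 0 lower of 51, the mitochondrial DNA-encoded genes 0 higher and 4 lower of 15, and all tested genes 2790 higher and 2655 lower of 14740.

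Sequence features of the members' start sites were counted in RefSeq windows of 300 bases, 250 before and 50 after each start, on both strands. Windows were found for 69 of the 78 members, 75 windows in all. The core motif of NRF1, GCGCANGCG, was present in 21.3% of the members' windows, against 6.25% of all 32851 windows in the table and 13.0% of those of tested genes. The ETS core CCGGAAG was present in 34.7%, against 8.86% and 17.3%. The YY1 core AAGATGGCG was present in 10.7%, against 1.4% and 2.97%. The ETS and YY1 cores can share the letters AAG, so a stretch can match both, and a window may hold more than 1 motif. Any of the 3 was present in 7 of 14 windows of members called higher, in 35 of 59 windows of members not called, and in neither of the 2 windows of members called lower. In the Mrpl44 sequence given above the NRF1 core begins 35 bases before the start, and in Mrps27 the ETS core begins 48 bases before it. A match is a description of the letters and not a binding site.

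Many members share their start region with a neighbour read from the opposite strand. In GENCODE M21, 33 members (42.3%) had a protein-coding gene that starts within 1000 bases on the other strand and runs the other way, against 16.6% of 12181 tested protein-coding genes. For 30 of these the neighbour was tested, and 9 neighbours were called higher and 1 lower (33.3% called, against 36.9% of all tested genes). In 3 of the pairs both genes were called higher: Mrpl47 with Ndufb5 (log2 fold changes 0.29 and 0.21), a gene of respiratory complex I, Mrps18b with Ppp1r10 (0.23 and 0.15), and Mrps27 with Ptcd2 (0.21 and 0.26). In 1 pair they went in opposite directions, Mrpl44 (0.24) and Wdfy1 (-0.45). Mrpl46 and Mrps11 are a pair of members, and neither was called (0.13 and 0.03). The library kit keeps the strand, but the sources used here do not state if the counting did, so genes whose ends overlap may share reads.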

How the data were processed

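Total RNA was purified with TRIzol and a spin kit and made into directional libraries with an MGI kit, per the labels' protocols. The authors deposited 1 table of CPM values. Trimmomatic 0.38, RSEM 1.3.0, Bowtie2 and edgeR are named, with the build GRCm39, in the submitters' processing notes, without order or settings. All values (100%) were whole multiples of the smallest of their column within a tolerance of 0.001, so reads could be recovered, and 1 read was worth 0.0672 to 0.0827 CPM. Column names differ from the sample titles (shluc for the control, and a misspelt Arl4c numbered 2 to 4), so columns were mapped to groups and not to single samples.

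Of 22032 gene identifiers, 21880 matched a symbol. The 14740 genes whose mean reached 1 CPM were fitted as log2(CPM + 1) with limma 3.58.1 in R 4.3.3 (intensity trend, robust moderation, no covariate), with Benjamini-Hochberg adjustment over all of them and a threshold of 0.05. Alternatives changed the pseudocount, filter, scaling, moderation, weights or tool (edgeR 4.0.16 and DESeq2 1.42.0 on recovered reads, which called 5303 and 4108 genes against 5445 by limma), corrected for GC content and length, or left out each library. The main limma fit, and not the alternatives, was tried on simulated counts, in which far fewer genes changed than were called here. Members, gene lists and rules were chosen with earlier results of these data known. Named were the largest rises and falls among called members, the stalk and tunnel exit groups, the extremes of level per length, members whose call turned on 1 library, up to 2 called genes of each list of other mitochondrial genes, by smallest p, and set regulators, while the cytosolic ribosome and respiratory chain lists are given by counts; Mrpl37, Mrpl38, Mrpl46, Mrps11, mt-Rnr1, mt-Rnr2, mt-Co1, mt-Co2, mt-Co3, mt-Nd3, mt-Nd4, Fastk, Grsf1, Gfm1, Tsfm, Lrpprc, Tars2, Vars2, Mrps30, Gabpb1, Perm1, Tomm40 and the neighbouring genes were chosen after their values were seen. Annotation was of an earlier build and served for symbols, types, lengths, neighbours and promoter sequences.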

Additional observations from a re-analysis of the deposited data

How the results depend on the processing

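The median log2 fold change of the members stayed above 0 under every alternative run, at 0.09 to 0.14, and at 0.08 to 0.15 when each library was left out, and Arl4c stayed called and lower in all of them. Counts of calls moved more. With DESeq2, 6 members were higher and 1 lower (small subunit 2 and 1, large subunit 4 higher). Array weights gave 28 higher (small subunit 12, large subunit 16), with 24.7% of all genes higher. Without trend and robust moderation limma gave 10 higher and 1 lower (small subunit 2 and 1), with 15.2% and 15.3% of all genes. With no filter, plain CPM or quantile normalisation, 1 member was lower, of the small subunit. After correction for GC content and length 4 were lower, 1 of them of the large subunit. Leaving out each library gave 7 to 30 members higher and 1 to 3 lower, 1 to 14 and 1 to 2 in the small subunit, and 4 to 16 higher and 0 lower in the large. The cause of these changes was not tested, except that fewer libraries enter when 1 is left out. A test with 2 libraries in a group assumes that they vary like the other group.

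No paired analysis was possible because the deposited shArl4c columns carry other numbers than the shArl4c sample titles and no source ties them to single samples. With 3 libraries a group, a difference as large as the members' median was under 2 standard errors for a gene of typical error.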

Other observations

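Mrpl23 has a processed pseudogene copy, Mrpl23-ps1, that was listed at a higher level than the gene itself, and the split of reads between such near-identical copies is uncertain. In shControl 1, 2 and 3 Mrpl23 had 5.17, 7.33 and 7.28 CPM, and in shArl4c 2, 3 and 4 it had 6.90, 5.47 and 6.43 CPM. Mrpl23-ps1 had 11.4, 8.27 and 8.11 CPM and 9.002, 9.97 and 8.80 CPM in the same order. Their sum was 16.5, 15.6 and 15.4 CPM in shControl and 15.9, 15.4 and 15.2 CPM in shArl4c, a narrower range than that of either. The pseudogene Mrpl48-ps had means of 2.23 CPM (shControl) and 2.13 CPM (shArl4c), so Mrpl48 carries the same doubt.

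Across the 78 members, the log2 fold change had a Pearson correlation of 0.16 with the log2 length of the principal transcript, of 0.07 with its GC content and of 0.17 with the log2 mean level. These are correlations across genes of the same 6 libraries, and genes are not independent replicates. The members' median transcript length was 1302 bases, against 869 bases for the cytosolic ribosomal protein genes, 875 bases for the respiratory chain genes and 2909 bases for all tested genes.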
